A study of Mus musculus with 16 samples.

Results

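Interferon-stimulated genes are the genes that cells switch on when interferon binds its receptors. The 43 symbols described here were listed by name as type I and type II response genes. A gene was measured where a probe set of the array carried its symbol alone, and the probe set with the highest mean over 16 arrays stood for it. That left 41 of 18193 measured genes. Isg15 shares its probe set with Gm9706, and no probe set was annotated to Ifi44. The level of 40 members lay above background (2.97 on the log2 scale, the 95th percentile of control transcripts not added to an array) on all arrays. The exception was Mx2, an antiviral GTPase, which read 2.69 to 3.17 over the 16 arrays and is at background.

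Type I and type III interferons signal through Jak kinases to a complex that includes Stat2 and Irf9 and binds a DNA element called the interferon-stimulated response element. Type II interferon acts through a different element, the gamma-activated site. The genes under these elements encode sensors of viral nucleic acid, proteins that block viral entry, translation or budding, ubiquitin-like modifiers, GTPases that attack intracellular pathogens, and chemokines. Airway epithelium is a first site of contact with respiratory viruses and keeps part of this programme at a low constant level.

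The arrays come from airway epithelial cells of C57BL/6 mice grown at an air-liquid interface, where the upper surface is exposed to air so that the cells differentiate. Cultures were either left uninjured or given 3 scratches. The wild-type cells carry Mmp7, and the Mmp7-null cells (Mmp7-/-) lack this secreted metalloproteinase of injured epithelium. Each combination of genotype and injury was represented by 4 cultures with 1 array each, and all cultures spent 24 hours without serum before RNA was taken. The labels give neither the time after scratching nor the animals behind each culture, so the p-values below measure only the spread between these cultures, which may be technical. Levels are log2 intensities, listed for cultures 1 to 4 of a group, and differences are on the log2 scale with the standard error (SE) of the limma fit and a p adjusted for the 18193 genes tested (Benjamini-Hochberg). A gene is said to have risen or fallen only where this p was under 0.05. In cultures, fewer cells that express a gene and less RNA per cell cannot be told apart.

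Mmp7 itself was at or under background in every group (2.13 to 2.59 over the 16 arrays), so its probe set does not check the genotype labels. All 8 airway epithelial markers were above background on every array, among them Cdh1 (13.12 to 13.53) and Epcam (11.39 to 11.83). Wild-type scratched cultures 3 and 4 and Mmp7-null scratched culture 1 stood apart in signal distribution or RNA control probes, and counts are also given without them. Added control transcripts divided the arrays into 3 sets named for them: Lys on 4 Mmp7-null arrays, Phe on 6 arrays of both genotypes, and Trpn on the remaining 6 wild-type arrays. The labels do not say what these sets stand for.

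The 250 bases before the RefSeq start of transcription (GRCm38.p6) were searched on both strands for the letters of the interferon elements. These were the core of the response element, GAAANNGAAA, and the gamma-activated site, TTCNNNGAA, which reads the same on both strands. A window was found for 31 of the 41 measured members. The response element core was present in 12 of them (38.7%), against 3.46% of 27025 genes and 2.98% of 32851 windows. The gamma-activated site was present in 6 (19.4%), against 8.13% of genes and 7.02% of windows. The windows below run 5′ to 3′ along the gene, with matches in capitals. Ifit3, Trim30a and Rsad2 are the members of widest range over the 16 arrays among those whose window holds the response element core; here it is read on the opposite strand, as TTTCNNTTTC. Ifitm1, which rose on scratching in both genotypes, has neither motif in this window. These 4 were chosen after their values were seen.
Ifit3 (chr19:34583279-34583528, plus strand): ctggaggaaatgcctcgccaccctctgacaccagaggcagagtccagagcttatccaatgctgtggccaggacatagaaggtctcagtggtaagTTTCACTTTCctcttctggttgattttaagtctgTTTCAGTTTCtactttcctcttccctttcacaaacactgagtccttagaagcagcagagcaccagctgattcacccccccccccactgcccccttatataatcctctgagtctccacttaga
Trim30a (chr7:104465194-104465443, minus strand): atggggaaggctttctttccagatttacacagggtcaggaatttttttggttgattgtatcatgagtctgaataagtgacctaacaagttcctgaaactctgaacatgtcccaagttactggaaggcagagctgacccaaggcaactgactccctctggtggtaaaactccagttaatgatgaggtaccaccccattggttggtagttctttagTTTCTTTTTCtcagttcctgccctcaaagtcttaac
Rsad2 (chr12:26456453-26456702, minus strand): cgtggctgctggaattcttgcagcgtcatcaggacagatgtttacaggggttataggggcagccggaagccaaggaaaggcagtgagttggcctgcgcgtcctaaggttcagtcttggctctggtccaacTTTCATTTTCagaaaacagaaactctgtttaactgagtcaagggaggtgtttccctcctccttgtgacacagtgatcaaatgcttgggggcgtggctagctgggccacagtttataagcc
Ifitm1 (chr7:140967826-140968075, plus strand): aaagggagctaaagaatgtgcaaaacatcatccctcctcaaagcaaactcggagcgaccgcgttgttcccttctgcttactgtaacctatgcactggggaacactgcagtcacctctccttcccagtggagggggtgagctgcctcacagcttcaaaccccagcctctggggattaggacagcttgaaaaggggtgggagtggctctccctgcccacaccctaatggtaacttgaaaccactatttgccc
The windows of Ifit3 held 2 matches, at bases -156 to -147 and -122 to -113 counted back from the start of transcription. In Trim30a the match lay at -36 to -27, and in Rsad2 at -120 to -111. Among the members that passed a test, Eif2ak2, Ifitm1, Samd9l, Trim25, Ifi47 and Lgals3bp had a window, none of which holds the response element core. The window of Eif2ak2 holds the gamma-activated site. A match describes letters, and no match says only that they are not in this window.

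Within a group, the same cultures tended to be high or low for most members, as a description with no test. Wild-type uninjured culture 3 gave the highest level of its group for 38 of the 41 members. Mmp7-null uninjured culture 2 did so for 36. In the scratched groups the lead was shared: Mmp7-null culture 3 was highest for 27 members, wild-type culture 3 for 22 and wild-type culture 4 for 17. At the low end, Mmp7-null uninjured culture 3 was lowest of its group for 22 members and culture 1 for 18, and wild-type scratched culture 2 was lowest for 27. The array that most often led its group did so in all 4 groups for 15 members and in 3 groups for 13 more, against 2 groups for 12 and none for Ifitm1.

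Deviations from each gene's mean over 16 arrays give the size of this movement. The median over members was -0.02, -0.32, 0.39 and -0.38 in wild-type uninjured cultures 1 to 4 and -0.07, -0.12, 0.28 and 0.31 in wild-type scratched ones. In Mmp7-null cultures it was -0.62, 0.11, -0.54 and -0.20 before injury and 0.24, 0.34, 0.54 and 0.33 after scratching. Uninjured wild-type cultures therefore overlapped the scratched ones, and culture 3 lay above all of them, while every scratched Mmp7-null culture lay above every uninjured one. Over all genes the same median stayed between -0.04 and 0.03 on every array. Uninjured Mmp7-null cultures 1 (low) and 2 (high) carried the same added control transcript, Lys, and cultures 3 (low) and 4 both carried Phe.

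**Figure D1:**
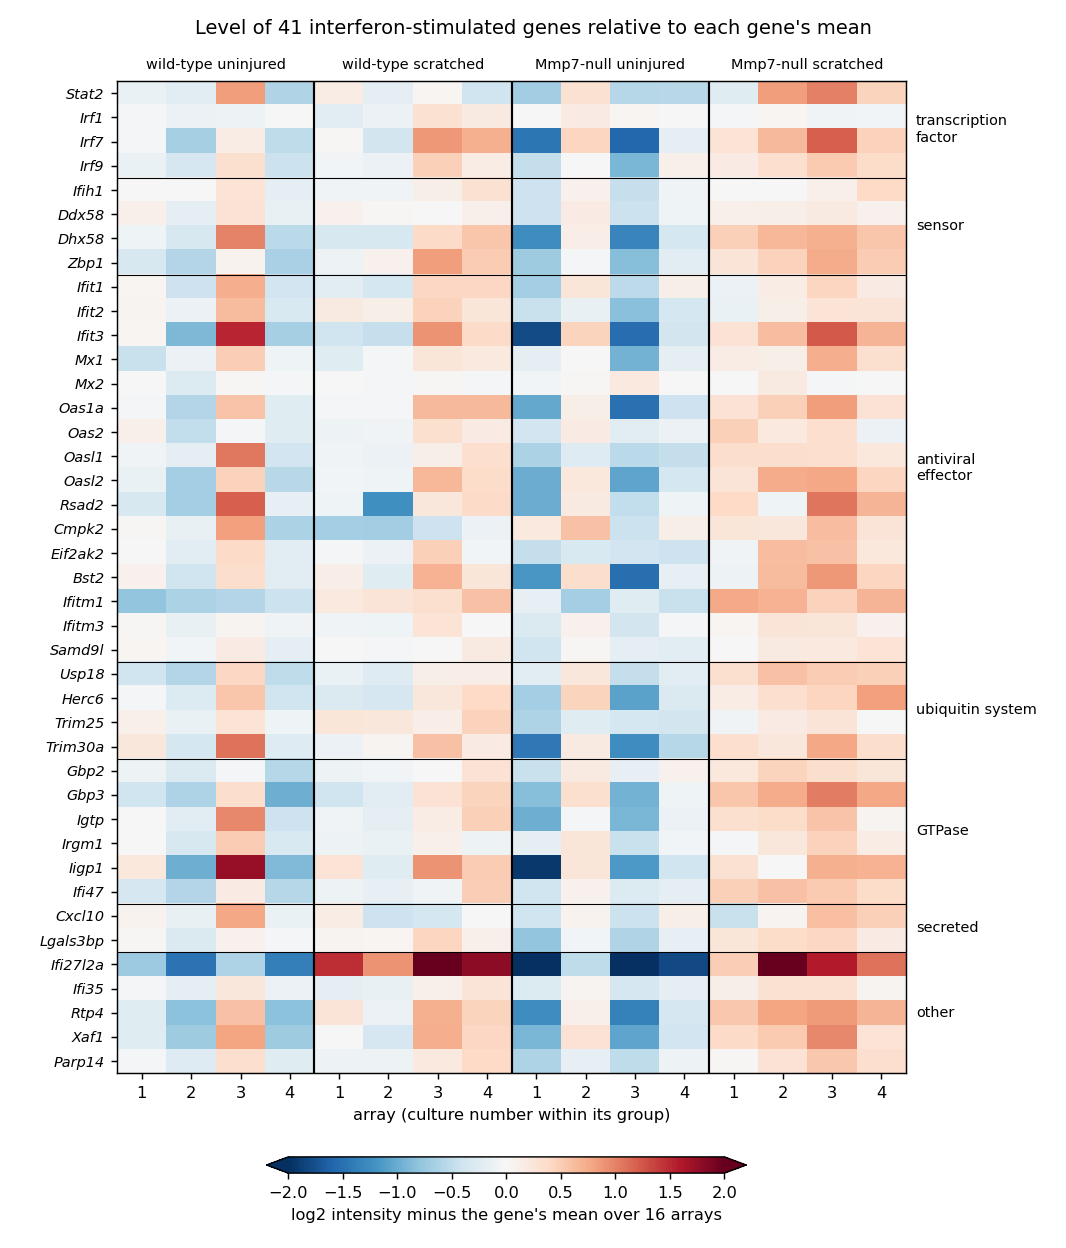
Heat map of the 41 members (rows, by role) on the 16 arrays (columns, by group), coloured by log2 intensity minus the gene's mean over 16 arrays, with colours ending at 2 either side. Wild-type uninjured culture 3 stands out as high and Mmp7-null uninjured cultures 1 and 3 as low over most rows, while Ifitm1 does not share this pattern and Irf1 moves little.

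**Figure D2:**
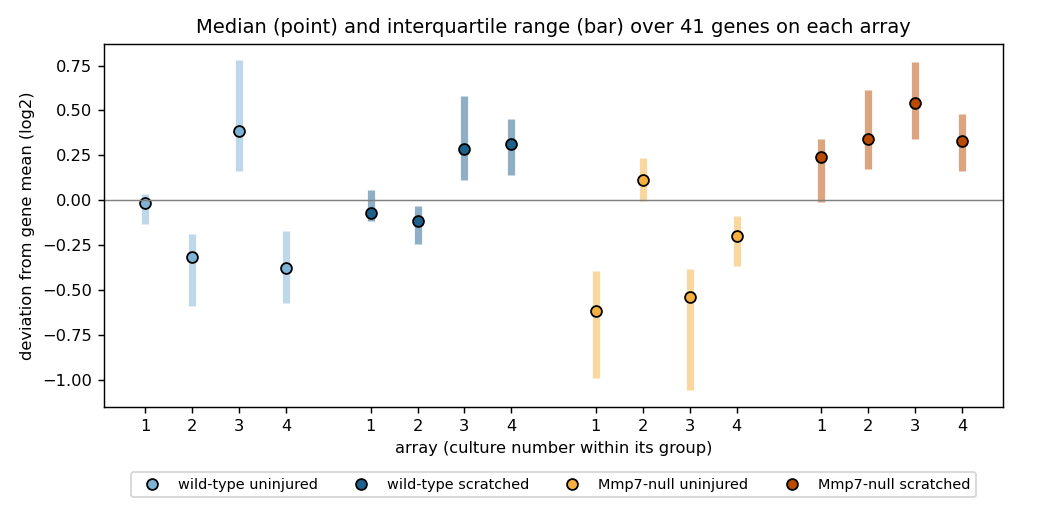
Deviation from each gene's mean (log2) on each array, with the median over 41 members as a point and the interquartile range as a bar. Scratched Mmp7-null cultures (0.24 to 0.54) lie above uninjured ones (-0.62 to 0.11), and the wild-type groups overlap.

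The spread was unequal between members. The range over all 16 arrays ran from 0.47 for Mx2 to 5.25 for Ifi27l2a. Within a group, 16 members spanned more than 1 log2 unit among the uninjured wild-type cultures and 17 among the uninjured Mmp7-null ones, against 6 and 4 among the scratched wild-type and Mmp7-null cultures. The median within-group range was 0.86 and 0.82 in the uninjured groups and 0.58 and 0.49 in the scratched ones, wild-type first. The median SE of a difference was accordingly 0.23 for members against 0.08 for all genes and 0.10 for genes with a mean above background.

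Scratching was examined in each genotype. In wild-type cultures 2 of 41 members rose and none fell (2.55% of all genes were called higher), and the same 2 members, Ifitm1 and Ifi27l2a, had all 4 scratched cultures above all 4 uninjured ones (4.21% of all genes). The median change of the members was 0.10 (all genes 0.01), with 34 of 41 above 0 (58.3% of all genes). It was -0.03 with arrays weighted by quality and -0.003 without the 3 arrays that stood apart, so its direction is not settled. Leaving out 1 wild-type array gave 0.06 (uninjured culture 2, scratched culture 3), 0.07 (uninjured 4), 0.21 (scratched 1 or 2) or 0.30 (uninjured 3). In Mmp7-null cultures 10 of 41 members rose and none fell (2.27% of all genes were called higher): Zbp1, Eif2ak2, Ifitm1, Samd9l, Trim25, Ifi47, Lgals3bp, Ifi27l2a, Rtp4 and Parp14. The median change was 0.70 (all genes -0.02), 39 of 41 were above 0 (31.9% of all genes), and 21 had scratched cultures wholly above uninjured ones (4.1% of all genes). An unadjusted p under 0.05 was reached by 34 members in Mmp7-null (17.4% of all genes) and 4 in wild-type cultures (16.5% of all genes).

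The number that passed in Mmp7-null cultures depended on single arrays, while the median did not. Leaving out uninjured culture 1, uninjured culture 3, scratched culture 2 or scratched culture 3 of this genotype left 3 members each (3.27%, 2.9%, 4.09% and 3.37% of all genes passed, in that order), and leaving out scratched culture 4 left 5 (4.49%). It became 16 without the high uninjured culture 2 (2.84% of all genes) and 18 without wild-type uninjured culture 3 (4.36%), which enters only through the shared estimate of spread. Over all of these the median change stayed between 0.63 and 0.78. Without the 3 arrays that stood apart 8 members passed (4.68% of all genes). With the set of added control transcripts as a block 5 passed (3.85%), and the median was 0.57 on the Lys arrays alone and 0.86 on the Phe arrays (2 cultures against 2 each, with 39 of 41 above 0 in each). In wild-type cultures it was 0.21 within the Trpn arrays (3 against 3) and 0.0014 in the Phe pair (1 against 1).

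**Figure D3:**
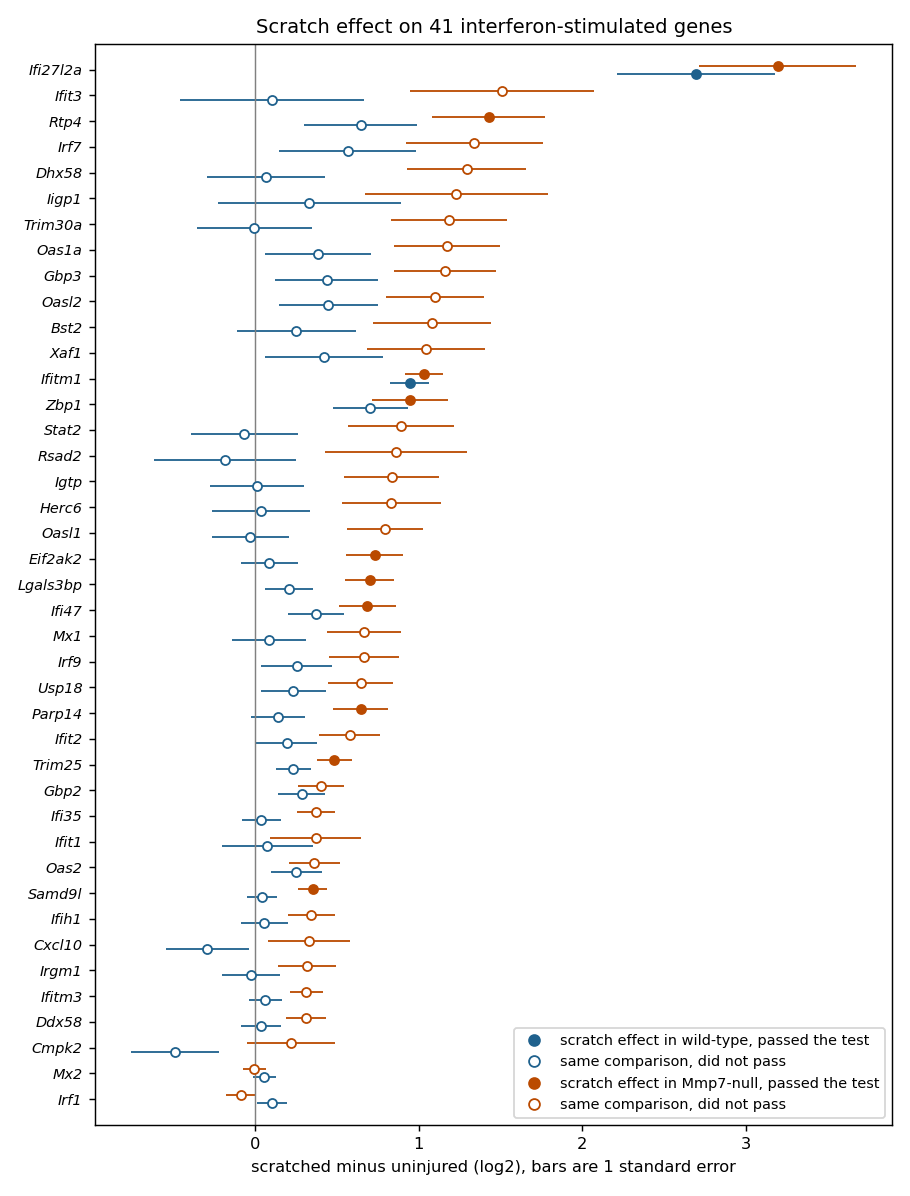
Scratched minus uninjured level (log2) of the 41 members in wild-type (blue) and Mmp7-null cultures (orange), ordered by the Mmp7-null value, with bars of 1 SE and filled points for genes that passed the test. Ifi27l2a and Ifitm1 are filled in both genotypes, and 39 of 41 points lie further right in Mmp7-null cultures.

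Among transcription factors, Irf7 amplifies interferon production and is itself induced by interferon. Its levels were 6.67, 6.03, 6.83 and 6.19 in uninjured and 6.72, 6.31, 7.55 and 7.39 in scratched wild-type cultures. In Mmp7-null cultures they were 5.25, 7.11, 5.11 and 6.49 before and 6.96, 7.34, 7.88 and 7.15 after scratching. Uninjured Mmp7-null culture 2 reached into the scratched range while cultures 1 and 3 lay near 5, and neither scratch comparison passed (0.57 in wild-type, adjusted p = 0.58; 1.34 in Mmp7-null, SE 0.42, adjusted p = 0.093). Irf1, an early target of type II interferon whose window holds the gamma-activated site, behaved otherwise. It read 8.43, 8.36, 8.37 and 8.48 in uninjured wild-type and 8.26, 8.36, 8.78 and 8.66 in scratched wild-type cultures. The Mmp7-null values were 8.48, 8.63, 8.51 and 8.49 uninjured and 8.43, 8.51, 8.40 and 8.42 scratched. All Irf1 values lay within 0.52 log2 units, and its scratch changes were 0.10 and -0.09 (adjusted p = 0.66 and 0.75). Of the 4 factors, Stat2 and Irf9 included, none passed in either genotype, with medians of 0.18 in wild-type and 0.78 in Mmp7-null cultures.

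The sensors recognise foreign nucleic acid. Zbp1, which binds Z-form nucleic acid and can trigger cell death, measured 6.43, 7.12, 6.30 and 6.93 in uninjured and 7.40, 7.60, 7.90 and 7.66 in scratched Mmp7-null cultures. The groups did not overlap, and it rose by 0.95 (SE 0.23, adjusted p = 0.033), a 1.93-fold increase. Wild-type cultures gave 6.82, 6.57, 7.22 and 6.50 uninjured and 7.05, 7.24, 7.98 and 7.66 scratched, which overlap, with a change of 0.70 that did not pass (adjusted p = 0.11). Its dimmer probe set gave 0.81 in Mmp7-null and -0.05 in wild-type cultures. Dhx58 (LGP2, a helicase that tunes RNA sensing) had the widest range of the sensors. It measured 5.28, 5.05, 6.36 and 4.83 in uninjured and 5.05, 5.05, 5.75 and 5.93 in scratched wild-type cultures. Its Mmp7-null levels were 4.13, 5.51, 4.05 and 5.02 before and 5.85, 6.03, 6.08 and 5.93 after scratching. The Mmp7-null groups were separate, and the scratched cultures spanned 0.23 log2 units. The change of 1.29 (SE 0.36) did not pass (adjusted p = 0.061). Ifih1 (MDA5, a sensor of long double-stranded RNA) stayed between 9.06 and 9.93 on all arrays. It read 9.51, 9.53, 9.81 and 9.32 in uninjured and 9.46, 9.46, 9.64 and 9.84 in scratched wild-type cultures. Mmp7-null cultures gave 9.11, 9.62, 9.06 and 9.46 uninjured and 9.52, 9.53, 9.63 and 9.93 scratched, with overlap in both genotypes and no change that passed.

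The antiviral effectors are the largest group, with 16 members, of which 1 rose in wild-type and 3 in Mmp7-null cultures. Ifitm1, a membrane protein that hinders fusion of enveloped viruses, had levels of 11.93, 12.09, 12.14 and 12.29 in uninjured and 12.91, 12.97, 13.04 and 13.30 in scratched wild-type cultures. In Mmp7-null cultures it had levels of 12.56, 12.05, 12.47 and 12.27 before and 13.48, 13.42, 13.18 and 13.40 after scratching. Every scratched culture exceeded every uninjured culture, also across genotypes. It rose by 0.94 in wild-type (SE 0.12, adjusted p = 0.00025; 1.92-fold) and by 1.03 in Mmp7-null cultures (SE 0.12, adjusted p = 0.00028; 2.04-fold). Both calls held under all 27 alternative settings. Ifitm1 was also the 1 member that in no group was highest on the array leading the other members: uninjured Mmp7-null culture 2, the highest of its group for 36 members, was its lowest. Ifitm3, a relative that restricts influenza virus in endosomes, read 13.89, 13.71, 13.91 and 13.79 in uninjured and 13.79, 13.77, 14.13 and 13.86 in scratched wild-type cultures. Its Mmp7-null levels were 13.56, 13.95, 13.50 and 13.81 uninjured and 13.90, 14.12, 14.10 and 13.95 scratched. It followed the common pattern within narrow limits, and its change of 0.31 in Mmp7-null cultures did not pass (SE 0.10, adjusted p = 0.11).

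Eif2ak2 (PKR, the kinase that stops translation on sensing double-stranded RNA) had tightly grouped levels of 7.92, 8.09, 8.01 and 7.98 in uninjured Mmp7-null cultures, against 8.33, 9.01, 8.98 and 8.61 after scratching. It rose by 0.73 (SE 0.17, adjusted p = 0.029; 1.66-fold), with no overlap. In wild-type cultures 8.39, 8.17, 8.78 and 8.18 before and 8.38, 8.28, 8.87 and 8.34 after scratching differed by 0.09 (adjusted p = 0.89). Culture 3 was highest in both wild-type groups. Samd9l, a restriction factor of poxviruses, measured 9.995, 10.41, 10.20 and 10.18 uninjured and 10.37, 10.56, 10.58 and 10.66 scratched in Mmp7-null cultures. It rose by 0.35 (SE 0.09, adjusted p = 0.045; 1.27-fold) although uninjured culture 2 lay above scratched culture 1, and 16 of 27 alternatives lost this call. Its wild-type levels were 10.43, 10.34, 10.55 and 10.22 uninjured and 10.39, 10.37, 10.38 and 10.57 scratched, a change of 0.04 (adjusted p = 0.89).

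Ifit3, a partner of Ifit1 in binding viral RNA, shows how far culture-to-culture spread limits the test. Its wild-type levels were 9.81, 8.87, 11.30 and 9.11 uninjured and 9.37, 9.31, 10.66 and 10.15 scratched. Its Mmp7-null levels were 7.98, 10.22, 8.25 and 9.40 uninjured and 10.05, 10.38, 10.99 and 10.45 scratched. The highest value of all was from an uninjured wild-type culture. Uninjured wild-type cultures 1 and 3 and uninjured Mmp7-null culture 2 overlapped the scratched cultures of their genotype. The Mmp7-null change of 1.51 (SE 0.56) was larger than that of Rtp4 but did not pass (adjusted p = 0.16), and the wild-type change was 0.10 (SE 0.56, adjusted p = 0.95).

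Within the ubiquitin system, Trim25 activates the RNA sensor RIG-I. It measured 9.39, 9.76, 9.66 and 9.63 in uninjured and 9.93, 10.17, 10.25 and 10.001 in scratched Mmp7-null cultures, and rose by 0.48 (SE 0.11, adjusted p = 0.02; 1.4-fold). The groups did not overlap. Wild-type levels were 10.10, 9.87, 10.27 and 9.91 uninjured and 10.25, 10.22, 10.14 and 10.46 scratched, a change of 0.23 (adjusted p = 0.3). Trim30a, which dampens Toll-like receptor signals, measured 8.85, 8.26, 9.70 and 8.36 in uninjured and 8.50, 8.67, 9.19 and 8.77 in scratched wild-type cultures. Among Mmp7-null cultures it measured 7.18, 8.79, 7.37 and 8.05 before and 8.96, 8.84, 9.39 and 8.96 after scratching. Scratched lay above uninjured in Mmp7-null cultures by 1.19 (SE 0.35), without passing (adjusted p = 0.077), and uninjured culture 2 fell short of scratched culture 2 by a small margin. Usp18 removes the Isg15 modifier and restrains the type I receptor. Its wild-type levels were 9.66, 9.47, 10.47 and 9.54 uninjured and 9.91, 9.79, 10.17 and 10.18 scratched. Its Mmp7-null levels were 9.82, 10.28, 9.58 and 9.85 uninjured and 10.37, 10.64, 10.57 and 10.53 scratched, again separate, with a change of 0.65 that did not pass (SE 0.20, adjusted p = 0.086).

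The interferon-inducible GTPases act on vacuoles that hold pathogens. Ifi47 rose by 0.69 in Mmp7-null cultures (SE 0.17, adjusted p = 0.039; 1.61-fold), from 8.58, 9.06, 8.71 and 8.78 to 9.46, 9.57, 9.5025 and 9.34, with no overlap. In wild-type cultures it read 8.64, 8.39, 9.15 and 8.41 uninjured and 8.88, 8.82, 8.90 and 9.48 scratched, a change of 0.37 (adjusted p = 0.31). Uninjured culture 3 overlapped the scratched ones. Iigp1 spanned 3.67 log2 units over the 16 arrays. Its wild-type levels were 7.35, 6.16, 8.88 and 6.25 uninjured and 7.40, 6.89, 8.04 and 7.63 scratched, and its Mmp7-null levels were 5.21, 7.37, 5.99 and 6.74 uninjured and 7.44, 7.12, 7.84 and 7.82 scratched. An uninjured wild-type culture again gave the highest value, and the Mmp7-null change of 1.23 (SE 0.56) did not pass (adjusted p = 0.28). Irgm1, a regulator of the other GTPases, read 9.02, 8.71, 9.54 and 8.73 uninjured and 8.93, 8.91, 9.13 and 8.93 scratched in wild-type cultures. Mmp7-null cultures gave 8.83, 9.27, 8.59 and 8.98 uninjured and 9.0003, 9.26, 9.49 and 9.18 scratched, with overlap in both genotypes. Of the 6 GTPases, Ifi47 alone passed, while all 6 had a change above 0 in Mmp7-null cultures (median 0.76) and 5 in wild-type cultures (median 0.31).

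Lgals3bp, a secreted glycoprotein that binds galectins, rose by 0.70 in Mmp7-null cultures (SE 0.15, adjusted p = 0.015; 1.62-fold). Its levels went from 10.11, 10.84, 10.29 and 10.73 to 11.14, 11.26, 11.31 and 11.05, without overlap. Wild-type levels were 10.92, 10.61, 10.98 and 10.88 uninjured and 10.95, 10.93, 11.32 and 11.001 scratched, a change of 0.20 (adjusted p = 0.56). The call in Mmp7-null cultures was lost under 2 of 27 alternatives, fewer than for Zbp1 (7) or Eif2ak2 (8). Cxcl10, a chemokine that draws T cells and is the other secreted member, read 5.93, 5.72, 6.65 and 5.74 in uninjured and 6.02, 5.46, 5.51 and 5.86 in scratched wild-type cultures. Its Mmp7-null levels were 5.47, 5.94, 5.44 and 5.99 uninjured and 5.42, 5.92, 6.47 and 6.35 scratched. Both pairs of groups overlapped, and the changes were -0.29 and 0.33 (adjusted p = 0.64 and 0.62).

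Ifi27l2a, a small hydrophobic protein of the Ifi27 family, moved most of all members. It measured 6.70, 5.95, 6.81 and 6.05 in uninjured and 8.90, 8.31, 9.87 and 9.21 in scratched wild-type cultures, and rose by 2.70 (SE 0.48, adjusted p = 0.0046; 6.48-fold). In Mmp7-null cultures it went from 4.93, 6.91, 4.63 and 5.61 to 7.91, 9.44, 9.01 and 8.50, a rise of 3.20 (SE 0.48, adjusted p = 0.002; 9.16-fold). The lowest scratched culture exceeded the highest uninjured one in each genotype, and both calls held under all 27 alternatives (largest adjusted p = 0.0499 in wild-type, without the 3 arrays that stood apart, and 0.035 in Mmp7-null cultures). Rtp4, a chaperone for membrane receptors, rose by 1.43 in Mmp7-null cultures (SE 0.35, adjusted p = 0.032; 2.69-fold), from 8.76, 10.10, 8.65 and 9.66 to 10.55, 10.79, 10.85 and 10.69. The 4 scratched values spanned a narrow interval above a wide uninjured one. Wild-type levels were 9.76, 9.18, 10.59 and 9.19 uninjured and 10.26, 9.89, 10.71 and 10.44 scratched, a change of 0.65 that did not pass (adjusted p = 0.39). Its dimmer probe set gave 0.90 in Mmp7-null cultures.

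Parp14, an ADP-ribosyltransferase, rose by 0.64 in Mmp7-null cultures (SE 0.17, adjusted p = 0.042; 1.56-fold), from 8.37, 8.82, 8.48 and 8.88 to 9.01, 9.28, 9.53 and 9.32. Its wild-type levels were 8.97, 8.73, 9.33 and 8.74 uninjured and 8.89, 8.88, 9.18 and 9.39 scratched, a change of 0.14 (adjusted p = 0.77). The Mmp7-null groups were separate, and the calls of Parp14, Rtp4 and Ifi47 were each lost under 11 of 27 alternatives. Ifi35 read 11.44, 11.27, 11.68 and 11.33 in uninjured and 11.27, 11.31, 11.56 and 11.71 in scratched wild-type cultures. Its Mmp7-null levels were 11.19, 11.52, 11.12 and 11.28 uninjured and 11.57, 11.75, 11.77 and 11.51 scratched, with a slight overlap and a change of 0.37 that did not pass (adjusted p = 0.098).

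**Figure D4:**
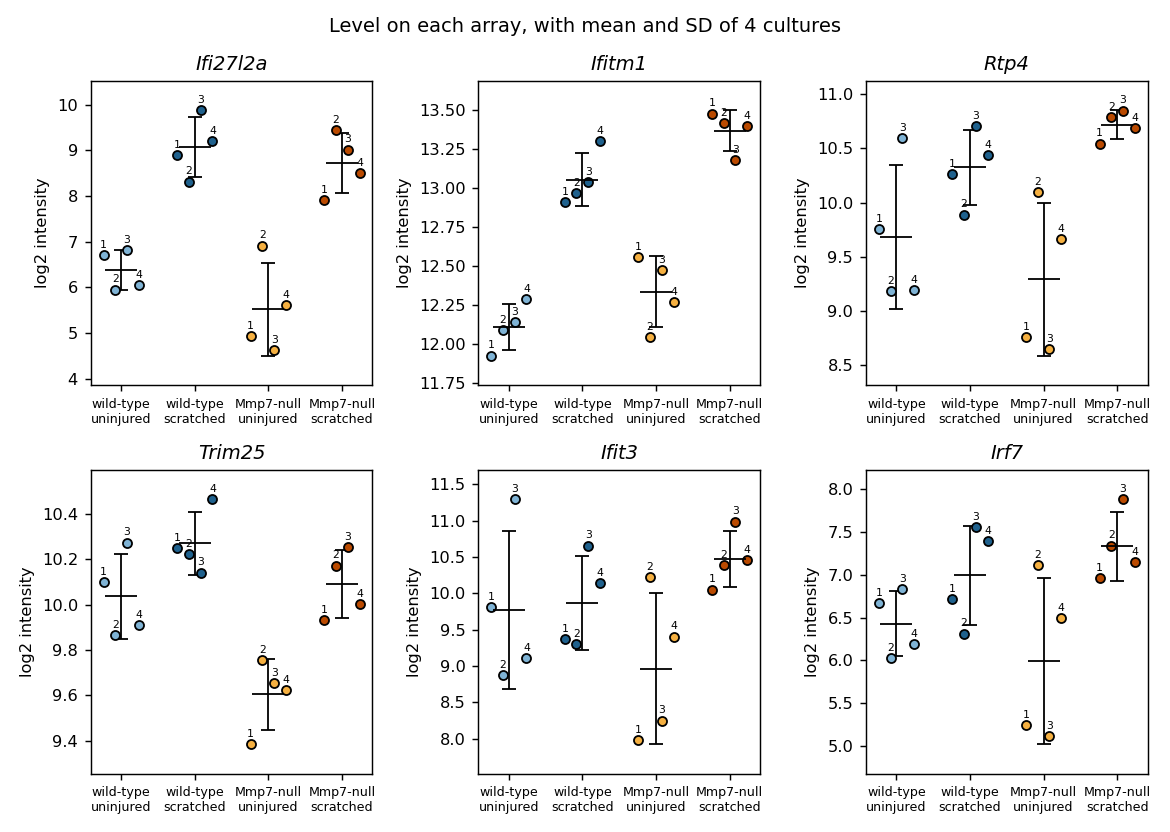
Log2 intensity of 6 members on each array (points, numbered by culture), with the mean and SD of each group of 4 cultures. Ifi27l2a and Ifitm1 separate scratched from uninjured cultures in both genotypes, Rtp4 does so in Mmp7-null cultures, and Ifit3 and Irf7 overlap.

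The other 19 members changed by -0.49 (Cmpk2, a mitochondrial nucleotide kinase) to 0.45 (Oasl2, of the oligoadenylate synthetase family) on scratching in wild-type cultures. In Mmp7-null cultures they changed by -0.01 (Mx2) to 1.17 (Oas1a, which makes the activator of RNase L). None of the 19 passed in either. Closest in Mmp7-null cultures were Gbp3, a guanylate-binding GTPase, at 1.16 (SE 0.31, adjusted p = 0.052), Oasl2 at 1.10 (SE 0.30, adjusted p = 0.055) and Oas1a at 1.17 (SE 0.33, adjusted p = 0.058), all with separate groups.

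The genotypes' scratch responses share no arrays, and their difference was tested directly. Of 41 members 39 had the larger change in Mmp7-null cultures (35.9% of all genes had a difference above 0), Irf1 and Mx2 being the exceptions, and the median difference was 0.50 (all genes -0.03). None passed (0.132% of all genes were called, either direction), the smallest adjusted p being 0.51, and 6 members had an unadjusted p under 0.05 (7.79% of all genes). The largest difference, of Ifit3, was 1.41 with an SE of 0.80, and the median SE over members was 0.33. For Ifitm1 the difference was 0.09 (SE 0.17, 95% interval -0.27 to 0.45) and for Ifi27l2a 0.50 (SE 0.68, 95% interval -0.98 to 1.98). That a member passed in Mmp7-null and not in wild-type cultures is therefore no shown difference between the genotypes. Without the 3 arrays that stood apart the median difference was 0.80.

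Genotype was compared in each state, and these comparisons share their arrays with the scratch comparisons above. Among uninjured cultures 1 of 41 members (2.44%, near the 2.5% of all genes called lower), Trim25, was lower in Mmp7-null cells. Its Mmp7-null levels, given above, were all under the wild-type ones, at -0.43 (SE 0.11, adjusted p = 0.034; 0.742-fold). With the set of added control transcripts as a block the value was -0.37 (adjusted p = 0.44; 0.313% of all genes passed), and within the Phe arrays it was -0.46 (2 against 1). Leaving out Mmp7-null uninjured culture 1, 3 or 4 or wild-type uninjured culture 1 or 3 left no member called. Eif2ak2 was the other member with separate groups (2 of 41, or 4.88%, under the 6.22% of all genes, lower), at -0.38 (SE 0.17, adjusted p = 0.31). Its dimmer probe sets gave -0.05 and -0.07. The median over members was -0.30 (all genes -0.01), with 9 of 41 above 0 (37.9% of all genes). It ran from -0.40 to -0.09 when 1 array was left out, at -0.09 without wild-type uninjured culture 3, -0.15 without Mmp7-null uninjured culture 3 and -0.18 without Mmp7-null uninjured culture 1.

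Among scratched cultures none passed (6.21% of all genes were called, either direction), while 5 members had an unadjusted p under 0.05 (22.3% of all genes). Changes were above 0 for 37 of 41 (32% of all genes), with a median of 0.25 (all genes -0.04). Cmpk2, Usp18 and Gbp3, named after their values were seen, had all Mmp7-null cultures above all wild-type ones (3 of 41; 4.19% of all genes, higher). Cmpk2 differed by 0.81 (SE 0.27, adjusted p = 0.1), Gbp3 by 0.74 (SE 0.31, adjusted p = 0.19) and Usp18 by 0.51 (SE 0.20, adjusted p = 0.16). With array weights 4 members passed (9.59% of all genes), and 2 passed without wild-type uninjured culture 3 (5.72%) and 1 without wild-type scratched culture 4 (6.24%). These counts are near or under the share of all genes. The median was 0.50 without the 3 arrays that stood apart, 0.38 with array weights and 0.15 without Mmp7-null scratched culture 3 or without wild-type scratched culture 2. Within the Phe arrays the median was 0.52 (2 against 1). Apart from the Phe arrays the genotypes share no set of added controls, so set and genotype cannot be told apart there.

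**Figure D5:**
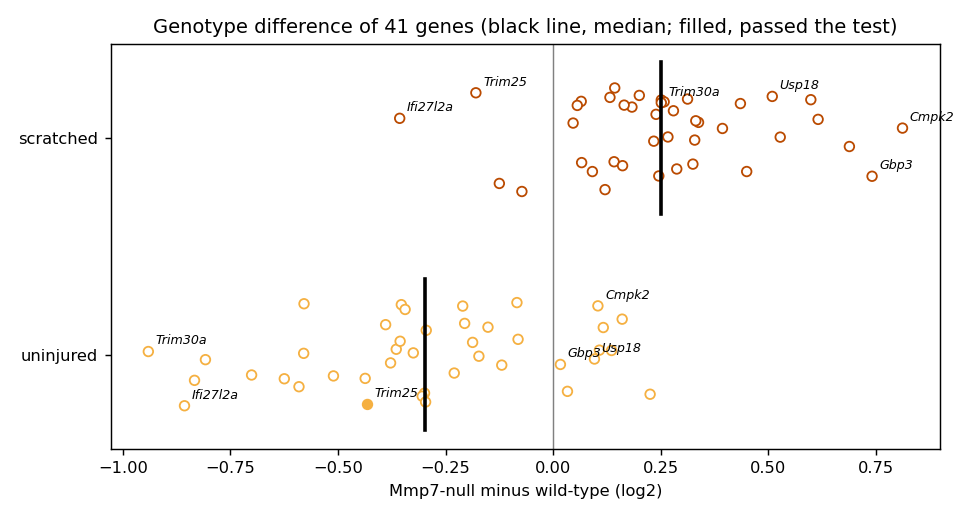
Mmp7-null minus wild-type level (log2) of the 41 members in uninjured and scratched cultures (points, spread vertically for legibility), with the median as a black line and a filled point for the gene that passed. The medians are -0.30 and 0.25, and Trim25 is the filled point.

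The genes upstream of the members were read from a list of 30 genes, of which 25 were measured. Among ligands Ifnb1, Ifna4 and Ifng lay under background on every array and Ifna1 on all but 1, while Ifna2 read 4.39 to 5.20. In wild-type cultures 1 of 6 receptors and 1 of 8 upstream sensors and adaptors rose on scratching and none of the 25 fell. These were Ifngr1, the ligand-binding chain of the type II receptor, at 0.38 (SE 0.08, adjusted p = 0.02), and Ikbke, a kinase that activates Irf3 and Irf7, at 0.60 (SE 0.11, adjusted p = 0.0076). On scratching in Mmp7-null cultures Ifngr1 changed by 0.11 (adjusted p = 0.61) and Ikbke by 0.40 (adjusted p = 0.066). No gene of the list passed in the other 4 comparisons. Its median change on scratching in Mmp7-null cultures was -0.01, with a range of -0.20 to 0.40. The receptors Ifnar1 (6.68 to 7.12), Ifnar2 (8.71 to 9.53) and Ifnlr1 (7.09 to 7.67) and the kinases Jak1 (9.43 to 10.003) and Tyk2 (6.26 to 7.19) were above background on all arrays. Socs1, a feedback inhibitor of Jak kinases, was under it on all, and Socs3 read 7.73 to 8.45.

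Leukocytes also express many of the members. Of 10 leukocyte markers, Ptprc, Itgam, Cd3e, Cd79a and Siglech, which mark leukocytes in general, myeloid cells, T cells, B cells and plasmacytoid dendritic cells, were under background on all arrays. Adgre1, a macrophage marker, lay near background (2.86 to 3.32). Cd14 (13.02 to 13.60), Lyz2 (12.62 to 13.43), Csf1r (3.12 to 4.49) and Cd68 (6.26 to 7.83) were above background on all arrays. Cd14, a co-receptor for lipopolysaccharide, rose by 0.37 on scratching in wild-type cultures (SE 0.06, adjusted p = 0.0015). In Mmp7-null cultures its change of 0.21 did not pass (adjusted p = 0.053), nor did the difference between the responses (-0.16, adjusted p = 0.66). Cd68, a lysosomal protein abundant in macrophages, rose by 1.03 on scratching in wild-type cultures (SE 0.14, adjusted p = 0.00041). Its change differed between genotypes (-1.12, SE 0.19, adjusted p = 0.043), and it differed by -0.92 in scratched Mmp7-null than in scratched wild-type cultures. The summed log2 level of the 10 was 50.4 to 51.2 in uninjured and 52.5 to 53.0 in scratched wild-type cultures, and 50.04 to 50.3 and 50.4 to 51.4 in Mmp7-null ones. All 4 endothelial markers were under background on all arrays. Of 6 fibroblast markers Dcn was the only one above background on all arrays, and it rose on scratching by 1.58 in wild-type and 1.23 in Mmp7-null cultures (SE 0.20, adjusted p = 0.00031 and 0.0036). Dcn was also higher in uninjured Mmp7-null than in uninjured wild-type cultures, by 0.997 (SE 0.20, adjusted p = 0.011). Col3a1 read 4.92 and 4.61 in scratched Mmp7-null cultures 1 and 3 and lay under background on the other arrays. Col1a1 exceeded background only in the first of these cultures (3.01) and Col1a2 only in the second (3.18). Pdgfra exceeded it on 3 different arrays (at most 3.09) and Lum on none. The summed level of the 6 was 17.0 to 17.9 and 19.0 to 19.5 in uninjured and scratched wild-type cultures and 18.2 to 19.1 and 19.7 to 22.5 in Mmp7-null ones. The 4 alveolar type 1 markers, all above background, summed to 48.7 to 48.9 and 48.0 to 49.1 in uninjured and scratched wild-type cultures and to 45.3 to 46.7 and 44.2 to 45.9 in Mmp7-null ones. For the 3 alveolar type 2 markers the sums were 13.99 to 14.6, 13.5 to 13.9, 15.2 to 15.9 and 15.2 to 16.1 in the same order. These sums hide differences between genes. Of the type 2 markers only Sftpc was higher in Mmp7-null cultures, by 1.504 uninjured and 1.801 scratched. Sftpb (-0.33 and -0.12) and Sftpa1 (-0.11 and 0.20) did not pass. Of the type 1 markers Ager (-2.29 and -2.35) and Hopx (-0.34 and -0.66) were lower in both states. Aqp5 was lower in scratched cultures only (-0.41), and Pdpn passed in neither state. Of the 8 airway epithelial markers, Krt8 and Krt18 rose (0.51 and 0.60) and Krt5 and Trp63 of basal cells fell (-0.80 and -0.48) on scratching in wild-type cultures. In Mmp7-null cultures Krt8 and Krt18 rose (0.41 and 0.38) and Krt5 fell (-0.45). Foxj1 of ciliated cells was higher in Mmp7-null cells, by 0.52 uninjured and 0.93 scratched; Cdh1 and Krt5 were lower in uninjured ones (-0.23 and -0.36). The summed level of the 8 was 87.7 to 88.3 and 87.02 to 87.9 in uninjured and scratched wild-type cultures and 87.7 to 89.0 and 88.2 to 89.3 in Mmp7-null ones. The part of these markers in the members' changes was not tested.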

How the data were processed

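RNA of 16 cultures was hybridised to Affymetrix arrays. The deposited table holds intensity values on a linear scale, made by the authors with RMA per the submitters' processing notes (version and genome build not given in the sources used here). The labels name the 430A 2.0 array, whereas the table lists 45101 probe sets, the number of a larger array of the same family. After removal of 64 control probe sets, 34945 carried 1 symbol, 932 several and 9160 none, and 18193 genes were tested. Intensities were converted to log2 with no filter or pseudocount. A limma 3.58.1 model with group means was fitted in R 4.3.3 to the 16 arrays together (12 residual degrees of freedom, eBayes, two-sided), for 5 comparisons, with a threshold of 0.05, and the script was tested on simulated data. The number of arrays limits the precision.

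Members and lists were chosen with earlier results of these data known. Values are given by array for members that passed and, in each role, for those of highest mean and widest range. Alternatives were a replicate block, the 8 arrays compared, omission of the dimmest 40% of genes, the mean over probe sets, a trended robust variance, array weights, centring, quantile normalization, the added controls as a block, omission of 3 doubtful arrays (scratched wild-type cultures 3 and 4 and scratched Mmp7-null culture 1), log2(value + 16), and leaving out each array. Values within a set of added controls were chosen after seeing the data. Promoter windows are from RefSeq; 10 measured members had none.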

Additional observations from a re-analysis of the deposited data

Results flagged for a closer look

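Levels of the 22 members given by array were screened for cultures far from the other 3 of their group, as were the medians over members. In 92 groups 4 single values stood apart, and chance gives about 1 in 20. All 4 are the highest value of the scratched wild-type group, on arrays 3 and 4, which also stood apart in signal distribution or RNA control probes. In culture 3, Eif2ak2 read 8.87 (next 8.38) and Irgm1 read 9.13 (next 8.93). In culture 4, Samd9l read 10.57 (next 10.39) and Ifi47 read 9.48 (next 8.90).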

How the results depend on the processing

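Under every alternative 2 members passed for scratch in wild-type cultures; none passed for the difference between responses, for which the fit to 8 arrays does not exist. In Mmp7-null cultures the 10 became 4 with the 8 arrays compared (2.21% of all genes passed), 18 without the dimmest genes (9.01%), 20 with array weights (6.39%; 4.72% in the report's fit), 5 with the added controls as a block, 8 without the doubtful arrays and 3 to 18 leaving out 1 array. For genotype in uninjured cultures the 1 became 0 with the replicate block, the 8 arrays, the mean over probe sets or the added controls as a block, and 0 to 1 leaving out 1 array. For genotype in scratched cultures none became 1 with the 8 arrays (2.9%), 1 without the dimmest genes (11.6%), 4 with array weights (9.59%) and 0 to 2 leaving out 1 array. The median difference between responses was 0.80 without the doubtful arrays. The cause of these shifts was not tested. No change of a member that passed turned its direction. Replicate numbers are shared between groups, and same-numbered samples correlated at -0.22 to 0.31. In 4 of 16 pairs (4 comparisons by 4 numbers, in which arrays recur) the own number correlated best. With 4 arrays a group, such correlations cannot show whether same-numbered cultures share an animal or a preparation. The main fit treats them as unpaired, and with the replicate block 7 members passed for scratch in Mmp7-null cultures. With 4 cultures a group, changes well above the members' median SE of 0.23 also went uncalled. Zbp1, with an SE of 0.23, did not pass at 0.70 in wild-type cultures (adjusted p = 0.11). It passed at 0.95 in Mmp7-null ones (adjusted p = 0.033). A member that did not pass may therefore still have changed by such amounts.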

Other observations

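Isg15, a ubiquitin-like modifier and a main product of the response, was left out because its probe set also carries Gm9706. That shared probe set read 8.26, 7.45, 9.87 and 7.75 in uninjured and 8.58, 8.40, 9.63 and 8.77 in scratched wild-type cultures. In Mmp7-null cultures it read 6.81, 8.97, 6.61 and 8.001 before and 9.48, 9.44, 10.09 and 9.30 after scratching. The highest and lowest uninjured arrays are those of most members. A probe set shared by Trim30a and Trim30d was likewise highest in wild-type uninjured culture 3 (6.73) and lowest in Mmp7-null uninjured culture 1 (3.30).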
